A study of Mus musculus with 16 samples.

Results

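The BATF family is a group of 3 basic leucine zipper (bZIP) transcription factors, Batf, Batf2 and Batf3, described here in mouse bone-marrow derived macrophages exposed to interferon-gamma. They are 3 of the 19938 genes with a name on these arrays, and each is read by 1 feature, 10397359 for Batf, 10460767 for Batf2 and 10352717 for Batf3. The genes were chosen by their symbol in the platform annotation, and the family was selected on the log2 intensities of these same arrays, in which the strong induction of Batf2 was already known. Their levels and differences are therefore given as a description with standard errors and without a p-value.

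RNA of the macrophages was hybridised to 16 Affymetrix MoGene 1.0 ST arrays, which measure 1 sample each. All donor mice, those of the controls included, carried an H3.3-HA knock-in, a histone H3.3 with an HA tag, and marrow cells had been differentiated in L-cell conditioned medium, a source of macrophage colony-stimulating factor. The 6 groups are naive cells at 0 h (4 arrays), 3 h (2 arrays) and 6 h (2 arrays) of interferon-gamma, and cells labelled pretreated at the same times, with the same numbers of arrays. Sample titles abbreviate the pretreated cells with PREIFN, and the sources used here state neither the interferon dose nor how long the pretreatment lasted or whether a rest followed. The numbering in the titles falls into 2 array sets of 8 arrays, each with its own 0 h arrays of both kinds, with the 6 h cells measured in set 1 and the 3 h cells in set 2. Time and array set cannot be told apart for that reason, and every difference below was taken within a set. No cells were kept for 3 h or 6 h without interferon, so its effect cannot be told apart from that of time or handling, and the responses of a cell kind at 3 h and at 6 h each use its own set of 0 h arrays. Nothing in the labels says that arrays of a group came from separate cultures or mice, so a p-value here weighs a difference against the spread of these samples alone, a spread that may be technical. In such bulk RNA, fewer cells expressing a gene and less RNA per cell cannot be told apart.

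BATF proteins have a DNA-binding basic region and a leucine zipper, and they lack the transactivation domains of the larger Fos proteins. They bind DNA as dimers with Jun proteins at AP-1 sites, and at composite elements they cooperate with interferon regulatory factors such as IRF4 and IRF8. Batf is best known from helper T cells and B cells, Batf3 from the development of cross-presenting dendritic cells, and Batf2 as a gene that interferon-gamma induces in macrophages, where its protein was described to pair with IRF1. Interferon-gamma acts through its receptor and JAK kinases on genes with gamma-activated sites, while interferon-stimulated response elements bind IRF proteins.

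The promoters of 2 of the 3 genes, Batf and Batf3, were in the RefSeq table used here (GRCm38.p6), and they are shown with those of Irf1 and Socs1, the interferon-induced genes they are set beside in the results. Each runs from 250 bases before the annotated start to 50 bases after it, 5′ to 3′ on the strand of the gene. Capitals mark every match on either strand to the letters TTCNNNGAA (a gamma-activated site), to GAAA followed by any 2 bases and GAAA again (an interferon-stimulated response element) or TGANTCA (an AP-1 site). The intervals are chr12:85686470-85686769 on the plus strand for Batf, chr1:191098164-191098463 on the plus strand for Batf3, chr11:53769764-53770063 on the plus strand for Irf1 (the first of its 2 listed starts) and chr16:10785487-10785786 on the minus strand for Socs1.
Batf: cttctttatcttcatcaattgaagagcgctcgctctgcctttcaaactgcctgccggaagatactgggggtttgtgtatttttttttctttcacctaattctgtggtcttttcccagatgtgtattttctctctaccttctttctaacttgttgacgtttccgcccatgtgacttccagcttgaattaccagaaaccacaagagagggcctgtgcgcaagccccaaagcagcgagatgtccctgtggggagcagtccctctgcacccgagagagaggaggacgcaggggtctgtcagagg
Batf3: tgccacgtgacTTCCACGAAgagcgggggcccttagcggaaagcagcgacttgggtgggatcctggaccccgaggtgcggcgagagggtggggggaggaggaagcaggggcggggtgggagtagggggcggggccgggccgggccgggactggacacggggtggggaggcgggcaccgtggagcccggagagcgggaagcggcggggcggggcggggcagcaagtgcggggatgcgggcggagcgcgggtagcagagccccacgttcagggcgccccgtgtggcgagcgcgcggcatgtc
Irf1: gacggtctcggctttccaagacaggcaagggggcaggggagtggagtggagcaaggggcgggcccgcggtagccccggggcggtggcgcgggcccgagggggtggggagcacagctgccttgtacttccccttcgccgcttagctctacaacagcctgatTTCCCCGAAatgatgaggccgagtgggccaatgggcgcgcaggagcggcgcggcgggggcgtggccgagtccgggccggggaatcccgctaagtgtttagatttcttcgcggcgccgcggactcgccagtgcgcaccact
Socs1: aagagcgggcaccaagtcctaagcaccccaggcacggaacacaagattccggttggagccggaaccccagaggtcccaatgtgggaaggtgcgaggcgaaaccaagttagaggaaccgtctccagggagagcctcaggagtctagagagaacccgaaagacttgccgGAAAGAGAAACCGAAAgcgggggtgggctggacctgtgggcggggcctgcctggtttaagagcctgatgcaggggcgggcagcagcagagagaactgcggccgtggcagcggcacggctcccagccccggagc

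The window of Batf held none of the searched letters. That of Batf3 held 1 gamma-activated site match, TTCCACGAA, which begins 239 bases before the start. The Irf1 window held 1 such match, TTCCCCGAA, 90 bases before the start, and that of Socs1 held 2 overlapping matches to the response element, beginning 83 and 77 bases before the start. Other windows were searched and are not shown. The second start of Irf1 and the windows of Irf4, Jun and Junb held no match. For Irf8 the first start held 2 gamma-activated site matches and the second none. The 2 genes shown for comparison are thus not typical of all that were searched. Of 32851 promoter windows of 300 bases in the table, 8.3% held the first motif, 3.44% the second and 7.81% the third, so single matches of these letters are common in the table. The Batf3 window was rich in G and C (75.7%), as was that of Irf1 (69.3%), whereas that of Batf stood at 49.7%. A match describes the letters only, and no binding was measured.

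Values of the deposited table are log2 intensities, a scale on which a difference of 1 is a 2-fold change. Replicate arrays correlated at Pearson r between 0.981 and 0.993 over all features. Set 1 had higher column medians (7.15 to 7.23) than set 2 (6.89 to 7), so levels of different sets were not compared. All 8 macrophage markers had a group mean above 6.5 in every group, and their mean log2 intensity was 12.5 to 12.9. The mean over the markers of each of 6 other cell types (T, B and NK cells, neutrophils, mast cells and fibroblasts) lay between 4.83 and 6.95. Single markers of these types also had group means above 6.5. They were 3 of 5 fibroblast markers in every group, and 4 of 7 neutrophil markers in set 1 but 0 in set 2. Of 6 T cell markers 0 to 2 did so, of 4 B cell markers 1 to 2, of 5 NK cell markers 0 to 1 and of 5 mast cell markers 0. Of the markers of those 6 types, limma called the B cell gene Cd79b alone, in naive cells at 6 h (-0.58, adjusted p = 0.0114). Among macrophage markers the interferon-inducible Fc receptor gene Fcgr1 was higher after interferon in naive cells at 3 h (1.80) and 6 h (1.54), and Cd14 was lower at 6 h in naive (-0.87) and pretreated cells (-1.06). No detection calls came with the values, so 6.5 serves as a working limit for dim features rather than as a measured background, and every value of the 3 family members lay above it. At 0 h, however, Batf3 read 6.85 to 7.92, Batf 7.23 to 8.12 and Batf2 in naive cells 7.46 to 8.09, not far from the column medians. Passing the limit therefore does not show that they were expressed there, and the size of their changes from 0 h is uncertain.

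**Figure D1:**
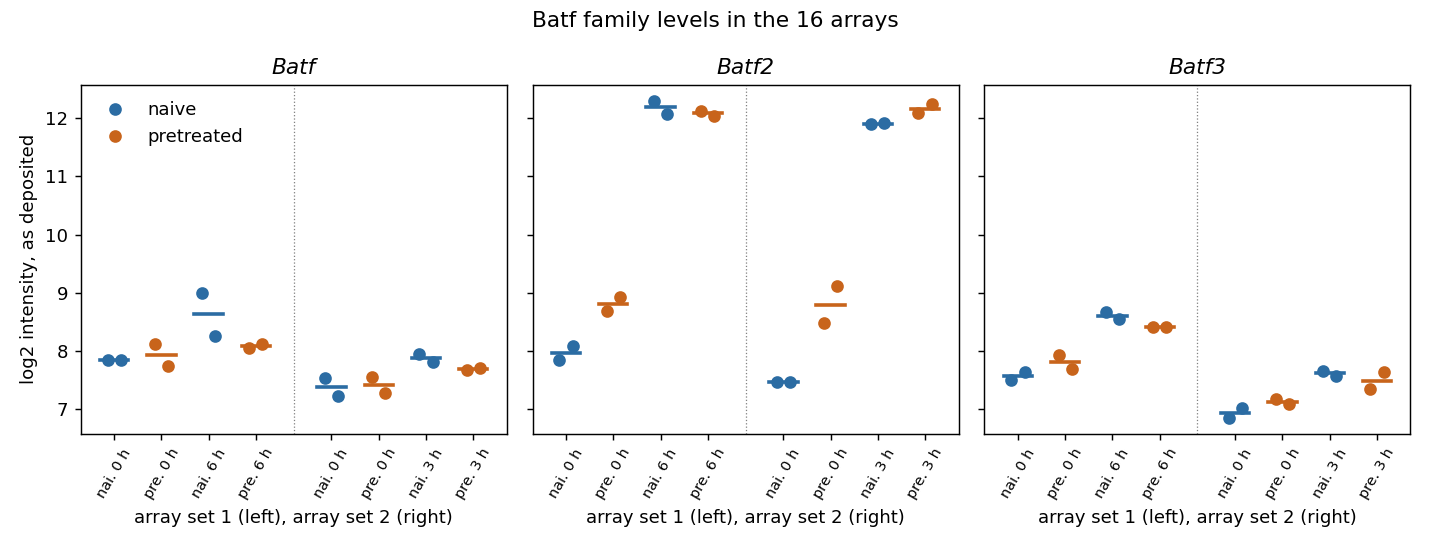
Log2 intensity (vertical axis) of Batf, Batf2 and Batf3 on each of the 16 arrays, by group and array set, with points for arrays and bars for the mean of the 2 arrays. Batf2 lay at 7.46 to 9.12 at 0 h and at 11.90 to 12.30 at 3 h and 6 h, while Batf and Batf3 stayed between 6.85 and 9.

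Batf2 was the member with the large response. In naive cells of set 2 it read 7.46 and 7.47 at 0 h and 11.90 and 11.91 at 3 h. In naive cells of set 1 it read 7.84 and 8.09 at 0 h and 12.30 and 12.08 at 6 h. No array of the stimulated cells came near one of the 0 h cells, and the gap was many times the spread between replicates. The difference was 4.44 ± 0.18 (SE, log2; 21.7-fold) at 3 h and 4.23 ± 0.18 (18.7-fold) at 6 h.

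In pretreated cells Batf2 started from a higher level. It read 8.69 and 8.92 at 0 h in set 1 and 8.47 and 9.12 in set 2, against 7.84 and 8.09 and against 7.46 and 7.47 in naive cells of the same sets. All 4 pretreated arrays exceeded the naive arrays of their set, by 1.08 ± 0.13 on average (2.12-fold), or 0.84 ± 0.18 in set 1 and 1.33 ± 0.18 in set 2. After stimulation the pretreated cells read 12.09 and 12.24 at 3 h and 12.13 and 12.04 at 6 h. These levels lay close to those of naive cells: 0.26 ± 0.18 above them at 3 h, with no overlap, and 0.11 below them at 6 h (-0.11 ± 0.18), with overlapping arrays. From that higher starting level the response of the pretreated cells was smaller, 3.37 ± 0.18 (10.3-fold) at 3 h and 3.28 ± 0.18 (9.69-fold) at 6 h. The response of pretreated cells minus that of naive cells was -1.07 ± 0.25 at 3 h and -0.95 ± 0.25 at 6 h. The 3 h value ran from -1.40 to -0.75 as single arrays were left out.

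Within set 1 the order of the Batf2 levels was naive cells at 0 h, pretreated cells at 0 h, then pretreated and naive cells at 6 h, whose arrays overlapped. Within set 2 it was naive at 0 h, pretreated at 0 h, naive at 3 h and pretreated at 3 h, and no neighbours in that order shared a range, although the last step (0.26) was little more than its standard error.

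Batf3, the dendritic cell factor, changed by far less. In naive cells it read 7.49 and 7.64 at 0 h and 8.66 and 8.54 at 6 h in set 1, and 6.85 and 7.02 at 0 h and 7.66 and 7.56 at 3 h in set 2. Stimulated arrays lay above the unstimulated ones at both times, by 0.67 ± 0.13 (1.60-fold) at 3 h and 1.04 ± 0.13 (2.06-fold) at 6 h. In pretreated cells it read 7.92 and 7.69 at 0 h and 8.41 and 8.41 at 6 h in set 1, and 7.17 and 7.08 at 0 h and 7.34 and 7.63 at 3 h in set 2. Groups again did not overlap, with differences of 0.36 ± 0.13 (1.28-fold) at 3 h and 0.60 ± 0.13 (1.52-fold) at 6 h. At 0 h pretreated cells were 0.21 ± 0.09 above naive cells, 0.24 in set 1 and 0.19 in set 2, with no overlap in either set. At 6 h both pretreated arrays lay below both naive arrays (-0.20 ± 0.13), and at 3 h the kinds overlapped (-0.13 ± 0.13). The order within set 1 was naive 0 h, pretreated 0 h, pretreated 6 h and naive 6 h without overlap of neighbours, and in set 2 the 3 h groups of both kinds overlapped.

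Batf, the lymphocyte factor, had the widest spread between replicates of the 3. In naive cells it read 7.85 and 7.84 at 0 h and 9 and 8.25 at 6 h in set 1, and 7.53 and 7.23 at 0 h and 7.95 and 7.80 at 3 h in set 2. Both stimulated groups lay above their 0 h arrays, by 0.50 ± 0.21 (1.41-fold) at 3 h and 0.78 ± 0.21 (1.71-fold) at 6 h. The 6 h difference rests in good part on 1 array, since it was 0.40 without replicate 1 of naive cells at 6 h and 1.15 without replicate 2. This is not particular to Batf. Leaving out the same replicate 1 also ended calls of Junb, Jdp2, Irf4, Xcr1, Maff and Socs3 given below, though for most of them other arrays did so too. In pretreated cells Batf read 8.12 and 7.74 at 0 h and 8.05 and 8.11 at 6 h in set 1, which overlapped (0.15 ± 0.21). In set 2 it read 7.55 and 7.28 at 0 h and 7.67 and 7.70 at 3 h, which did not (0.27 ± 0.21). The 0 h levels of pretreated and naive cells differed by 0.06 ± 0.15. Pretreated cells read below naive cells without overlap at 3 h (-0.19 ± 0.21) and at 6 h (-0.54 ± 0.21, 1.46-fold lower), and the 6 h value was -0.17 without replicate 1 of the naive cells and -0.92 without replicate 2. The SD between replicates, pooled over groups, was 0.238 for Batf, 0.196 for Batf2 and 0.116 for Batf3, against a median of 0.153 over all genes.

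**Figure D2:**
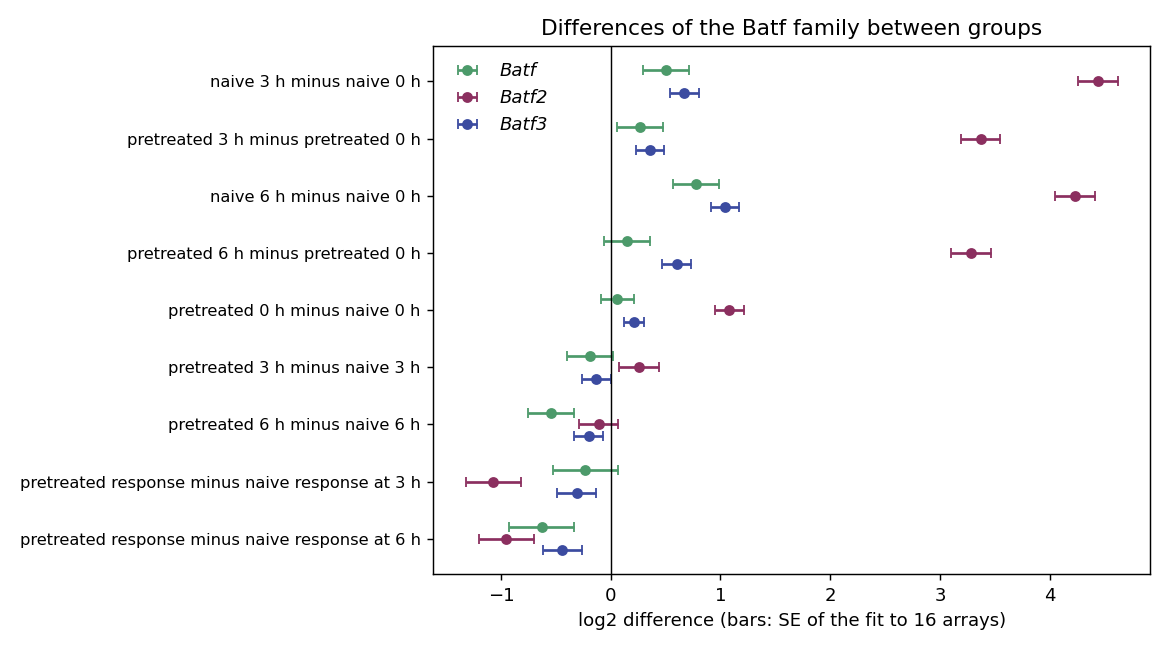
Log2 differences (horizontal axis) of Batf, Batf2 and Batf3 in each comparison (vertical axis), with bars for 1 SE of the limma fit. The Batf2 responses stand at 3.28 to 4.44, whereas no response of Batf or Batf3 exceeds 1.04.

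Set beside all genes, non-overlap of so few arrays is common. All 3 members were higher without overlap in naive cells at 3 h, as were 23.3% of all genes, and all 3 at 6 h, where 24.9% were. In pretreated cells all 3 were so at 3 h (14.6% of genes), and Batf2 and Batf3 at 6 h (16.6%). At 0 h Batf2 and Batf3 were higher in pretreated cells without overlap in both sets, against 4.26% of genes. Between kinds at 3 h Batf2 was higher (13% of genes) and Batf lower (14.6%), and at 6 h Batf and Batf3 were lower (19%).

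By the threshold of the limma fit, an adjusted p under 0.05 over all genes, Batf2 and Batf3 were called higher in naive cells at 3 h (3.37% of genes called higher, 2.09% lower) and all 3 members at 6 h (7.48% and 10.8%). In pretreated cells Batf2 was called at 3 h (1.86% higher, 0.998% lower), Batf2 and Batf3 at 6 h (2.89% and 2.76%), and Batf2 in pretreated against naive cells at 0 h (0.808% and 0.155%). Nothing is read from these counts, since the same values led to the choice of the family. Batf3 lost its call at 3 h in naive cells without replicate 3 of naive cells at 0 h or replicate 1 at 3 h, and at 6 h in pretreated cells without replicate 2 at 0 h or either 6 h array. Batf lost its call at 6 h in naive cells without replicate 1 or 2 at 0 h or replicate 1 at 6 h.

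Between pretreated and naive cells after stimulation, limma called none of the 3 members at 3 h (0.015% of genes called) or at 6 h (0.702%), and at an unadjusted p under 0.05 it named 0 members and 1 member. For the difference of the responses it called none at 3 h (0.0802%) or 6 h (0.145%), with 1 and 2 members at an unadjusted p under 0.05. Batf was called lower in pretreated cells at 6 h when replicate 2 of the naive cells was left out, and the smaller Batf2 response at 3 h was called without replicate 3 of pretreated cells at 0 h. These counts too are a description. Arrays with the earlier numbers of a set tended to deviate together, as did those with the later numbers. A fit with earlier and later numbers as a block called the same members in all 9 comparisons. Nothing is read from that either, since the same values led to the choice of the family.

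The Jun proteins, the usual dimer partners of BATF factors, were measured with 3 genes. Jun read a mean of 11.18 ± 0.15 (SD, n = 2) at 0 h and 12.10 ± 0.10 at 3 h in naive cells of set 2, and 11.13 ± 0.23 at 0 h and 12.06 ± 0.20 at 6 h in set 1. It rose in naive cells by 0.92 ± 0.16 at 3 h (limma adjusted p = 0.00419) and by 0.92 ± 0.16 at 6 h (adjusted p = 0.00151). Junb rose by 0.84 ± 0.21 at 6 h (adjusted p = 0.0149) and stood at 0.59 ± 0.21 at 3 h (adjusted p = 0.171), and Jund passed at neither time (0.34 and 0.40). So 1 of 3 rose at 3 h and 2 of 3 at 6 h, with list medians of 0.59 and 0.84, beside 0 and -0.015 over all genes. In pretreated cells limma called none of the 3 (1 at an unadjusted p under 0.05 at 3 h and 2 at 6 h), with medians of 0.31 and 0.43. With earlier and later numbers as a block Junb also passed at 3 h in naive and at 6 h in pretreated cells. Jund did so at 6 h in naive cells. Jun missed the threshold at 3 h without replicate 2 of naive cells at 3 h (adjusted p = 0.0542), and Junb missed it at 6 h without replicate 1 or 2 at 0 h or replicate 1 at 6 h (up to 0.162).

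Fos proteins compete with BATF for Jun, and Jdp2 and Atf3 are further small partners of Jun. Fos, the immediate early gene, fell by 1.84 ± 0.33 in naive cells at 3 h (-1.84, adjusted p = 0.00511), from 9.05 ± 0.55 to 7.2 ± 0.66 (SD, n = 2). At 6 h it stood at -0.96 ± 0.33 (adjusted p = 0.0667), and in pretreated cells at -1.17 ± 0.33 at 3 h (adjusted p = 0.0973). Jdp2 rose by 1.19 ± 0.25 in naive cells at 6 h (adjusted p = 0.00451). Fos and Jdp2 were the calls among 6 genes of this list, 1 lower at 3 h and 1 higher at 6 h, with list medians of -0.18 and -0.11, and limma called none in pretreated cells (1 and 3 at an unadjusted p under 0.05). The Fos call was lost without replicate 4 of naive cells at 0 h or replicate 2 at 3 h (adjusted p up to 0.0712), and that of Jdp2 without replicate 1 at 6 h (0.0639).

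The interferon regulatory factors that work with BATF proteins moved in different directions. Irf1, a direct target of interferon-gamma signalling, rose in naive cells by 2.93 ± 0.15 at 3 h (adjusted p = 1.68e-07) and 2.26 ± 0.15 at 6 h (adjusted p = 9.21e-07). Irf8, a factor of the macrophage and dendritic cell lineages, rose by 1.56 ± 0.15 (adjusted p = 3.86e-05) and 1.09 ± 0.15 (adjusted p = 0.000296). Irf4, better known from lymphocytes and alternatively activated macrophages, fell by 1.33 ± 0.30 at 6 h (-1.33, adjusted p = 0.00742) and stood at -0.54 ± 0.30 at 3 h (adjusted p = 0.463). The fall of Irf4 was not called without replicate 2 of naive cells at 0 h or replicate 1 at 6 h (adjusted p up to 0.0941).

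Like Batf2, Irf1 had a higher 0 h level in pretreated than in naive cells, by 1.11 ± 0.10 (adjusted p = 8.9e-05, and 0.194 with array set 1 alone). Its responses there were 1.28 ± 0.15 at 3 h (adjusted p = 0.00044) and 1.43 ± 0.15 at 6 h (adjusted p = 0.000149), and the levels reached differed from naive cells by -0.15 at 3 h and -0.11 at 6 h, neither of which passed. The smaller response of Irf1 at 3 h passed (-1.65 ± 0.21, adjusted p = 0.00822). That call was lost without replicate 2 of naive cells at 3 h, replicate 4 of pretreated cells at 0 h or replicate 2 of pretreated cells at 3 h (adjusted p up to 0.0639). Irf8 showed 0.13 at 0 h (adjusted p = 0.883), with responses of 1.41 ± 0.15 and 0.97 ± 0.15 in pretreated cells (adjusted p = 0.000266 and 0.00224). Of the 3 factors, 2 rose at 3 h in each kind of cell and 1 was higher at 0 h in pretreated cells.

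**Figure D3:**
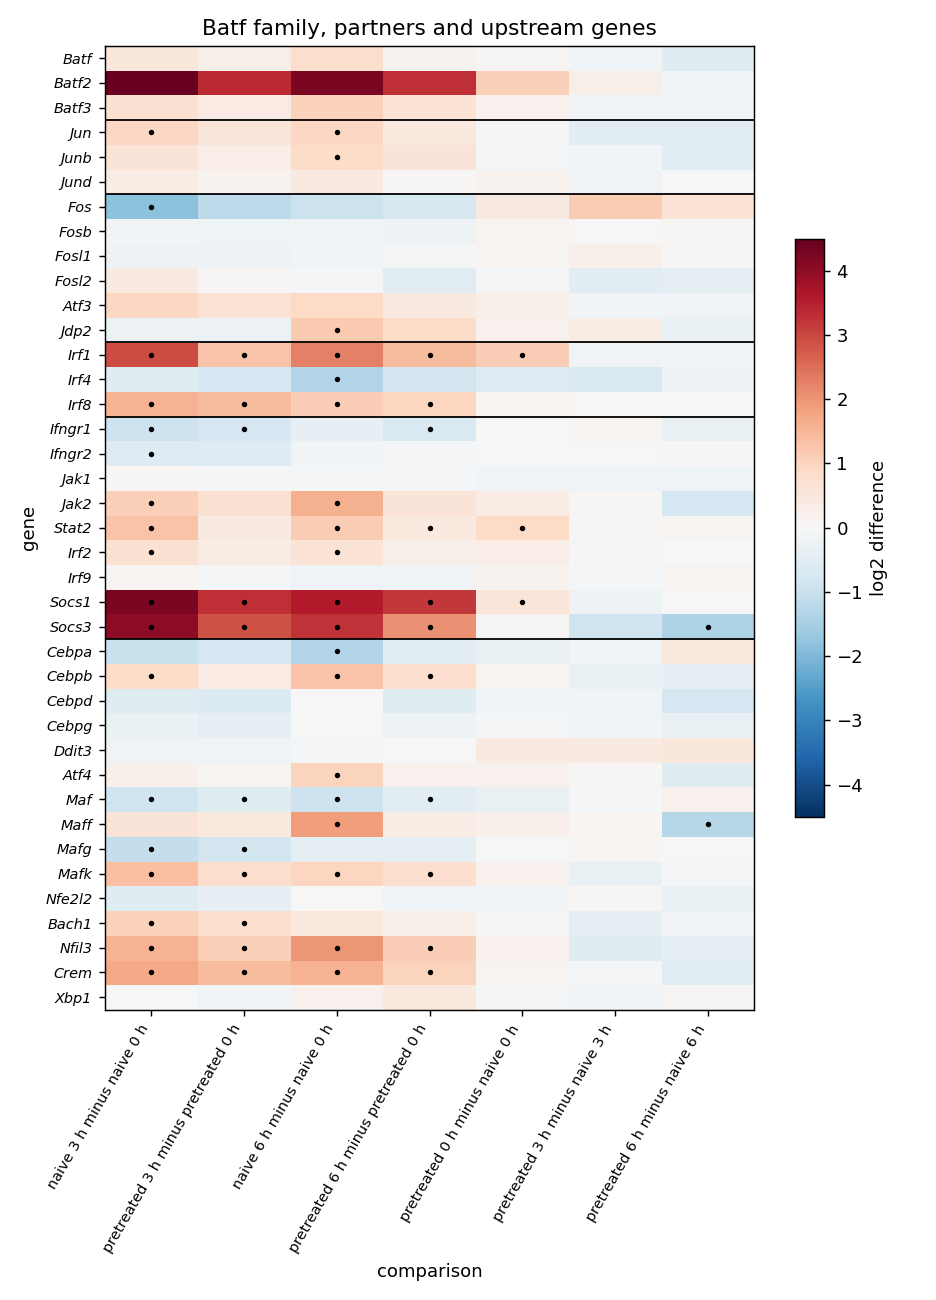
Heat map of log2 differences (colour scale) of the Batf family, the Jun and Fos families, interferon regulatory factors, interferon-gamma signalling genes and other bZIP factors (rows) in 7 comparisons (columns), where dots mark genes with an adjusted p under 0.05 and the family carries no dots. Irf1 and Irf8 are red and Fos is blue in all 4 responses, and Socs1 is close to Batf2 in colour.

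Of the receptor, kinase and feedback genes of interferon-gamma signalling, 9 were measured. In naive cells 5 rose and 2 fell at 3 h (list median 0.70), and 5 rose and 0 fell at 6 h (0.62). Socs1, the feedback inhibitor of JAK kinases, rose by 4.25 ± 0.15 at 3 h (adjusted p = 8.97e-09) and 3.56 ± 0.15 at 6 h (adjusted p = 5.53e-08), close in size to Batf2. Socs3, the other feedback inhibitor, rose by 4.04 ± 0.21 at 3 h (adjusted p = 2.01e-07) and 3.26 ± 0.21 at 6 h (adjusted p = 8.29e-07), and by 2.86 and 2.04 in pretreated cells. Stat2, a subunit of the complex that binds response elements, rose by 1.30 ± 0.11 at 3 h (adjusted p = 1.62e-05), and Jak2, a receptor kinase, by 1.61 ± 0.18 at 6 h (adjusted p = 4.99e-05). At 0 h the pretreated cells were higher in Stat2 by 0.90 ± 0.08 (adjusted p = 6.07e-05) and in Socs1 by 0.54 ± 0.11 (adjusted p = 0.0279), the 2 calls of the list. The 0 h call of Socs1 was lost with 6 of the 8 arrays left out in turn, all but replicate 4 of naive and replicate 2 of pretreated cells (adjusted p up to 0.147), and in each set alone (up to 0.768), and that of Stat2 held with any array left out. In pretreated cells 2 genes rose and 1 fell at 3 h, and 3 rose and 1 fell at 6 h, with list medians of 0.33 and 0.28. Ifngr1, the ligand-binding receptor chain, fell by 0.93 ± 0.14 in naive cells at 3 h (-0.93, adjusted p = 0.00164), and it was the gene that fell in pretreated cells (-0.75 at 3 h and -0.70 at 6 h), where leaving out any array at 3 h ended the call (adjusted p up to 0.104), as did replicate 2 at 0 h or either array at 6 h (0.0931). Socs3 was lower in pretreated than in naive cells at 6 h (-1.39 ± 0.21, adjusted p = 0.015), a call lost without replicate 1 of naive or either replicate of pretreated cells at 6 h (up to 0.199).

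Among other bZIP factors 15 were measured, to see whether the class as a whole moved. In naive cells 5 rose and 2 fell at 3 h, with a list median of 0.03, and 6 rose and 2 fell at 6 h, with a median of 0.21. Crem, a cAMP-response factor, rose by 1.69 ± 0.21 at 3 h (adjusted p = 0.000234), and Nfil3, a PAR-related repressor, by 1.57 ± 0.12 (adjusted p = 4.8e-06). At 6 h Nfil3 rose by 1.99 ± 0.12 (adjusted p = 4.79e-07) and Maff, a small Maf protein, by 1.89 ± 0.21 (adjusted p = 6.27e-05). None of these reached the size of the Batf2 response. In pretreated cells 4 rose and 2 fell at 3 h (median -0.13), and 4 rose and 1 fell at 6 h (0.21). There Crem rose by 1.43 ± 0.21 at 3 h (adjusted p = 0.0021) and Nfil3 by 1.10 ± 0.12 at 6 h (adjusted p = 0.000179). Maff was the member of this list called between kinds at 6 h, lower in pretreated cells (-1.29 ± 0.21, adjusted p = 0.0229). That call was lost without replicate 1 of the naive or either replicate of the pretreated cells (up to 0.257).

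Batf2 has been linked to inflammatory genes of macrophages, of which Tnf, Ccl5, Nos2 and Il23a were listed. In naive cells 1 of the 4 rose at 3 h and 3 at 6 h, with list medians of 1.40 and 2.72. The call at 3 h was Nos2 (2.24 ± 0.48, adjusted p = 0.0148), which was lost with any of its 4 arrays left out (up to 0.116). At 6 h Tnf, the cytokine, rose by 4.19 ± 0.65 (adjusted p = 0.000632), Ccl5, a chemokine, by 2.80 ± 0.40 (adjusted p = 0.000339) and Nos2, the inducible nitric oxide synthase, by 2.64 ± 0.48 (adjusted p = 0.00195). The arrays of Nos2 at 6 h stood far apart, at 7.95 and 10.19, and its rise was 1.52 without replicate 1 and 3.75 without replicate 2. Il23a, a cytokine subunit, passed at neither time (0.11 and -0.16). Nos2 started from group means of 6.43 and 5.98 at 0 h, under the working limit, so its size is uncertain, and Il23a stayed under that limit in every group. Ccl5 was also higher in pretreated cells at 0 h (2.64 ± 0.28, adjusted p = 0.000292), as Batf2 was, and it was the call among the 4 there, though it missed the threshold with array set 1 alone (adjusted p = 0.0561). In pretreated cells Ccl5 then changed by 0.11 ± 0.40 at 3 h and 0.29 ± 0.40 at 6 h, with overlapping arrays at both times, unlike Batf2. Nos2 rose in pretreated cells at 3 h (3.21 ± 0.48, adjusted p = 0.00265). At 6 h limma called none of the 4 there (2 at an unadjusted p under 0.05), and Nos2 with earlier and later numbers as a block.

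Batf3 is required for the cross-presenting dendritic cells, and 14 genes of those cells were listed. In naive cells 1 rose at 3 h, and 4 rose and 1 fell at 6 h, with list medians of 0.05 and 0.02, near those of all genes. Clec9a, the dead-cell receptor of these dendritic cells, rose by 4.44 ± 0.39 at 6 h (adjusted p = 9.87e-06), from a mean of 5.55, under the working limit, to 9.99, so the size of its change is uncertain. At 3 h it stood at 0.91 ± 0.39 (adjusted p = 0.278). Naaa, a lysosomal amidase, rose by 1.99 ± 0.23 at 6 h (adjusted p = 8.22e-05), and Tlr3, the receptor of double-stranded RNA, by 1.46 ± 0.15 at 3 h (adjusted p = 6.74e-05). Xcr1, the chemokine receptor of these dendritic cells, rose by 1.10 ± 0.28 at 6 h (adjusted p = 0.0153), a call lost without replicate 1 or 2 at 0 h or replicate 1 at 6 h (up to 0.171), and without the last its rise was 0.57.

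In pretreated cells Clec9a and Naaa were the 2 calls at 6 h (3.62 ± 0.39, adjusted p = 0.000201, and 1.12 ± 0.23, adjusted p = 0.0132), and Clec9a was higher than in naive cells at 0 h (1.67 ± 0.28, adjusted p = 0.00921). The Naaa call was lost with any of its 4 arrays left out (adjusted p up to 0.103), and the 0 h call of Clec9a without replicate 2 of naive or replicate 4 of pretreated cells (0.0544) and in array set 1 alone (0.371). Over 6 defining markers of these dendritic cells (Xcr1, Clec9a, Itgae, Cadm1, Flt3 and Zbtb46), the mean log2 intensity of an array ran from 7.04 to 7.2 in naive cells at 0 h and from 7.91 to 8.07 at 6 h in set 1. It ran from 7.46 to 7.53 and from 8.15 to 8.32 in pretreated cells of that set. Of the 6, Clec9a and Xcr1 were the 2 called higher in naive cells at 6 h, from group means of 5.55 and 6.54 at 0 h. Cadm1 (-0.06) and Zbtb46 (-0.12) did not rise there, while Flt3 and Itgae stayed at group means of 6.15 to 6.53 and 6.07 to 6.27, near or under the working limit. In naive cells Clec9a and Xcr1 thus rose with Batf3 at 6 h and the other markers did not. The part of these markers in the Batf3 values was not tested.

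Genes most like each member were taken as the 5 with the highest Pearson r over the 16 arrays, after the mean of each array set had been removed. This is a description, since the arrays share groups and sets, and the step between 0 h and stimulated arrays is common to the genes like Batf2 and Batf3. For Batf2 they were Gm4841 (r = 0.992), Sting1 (0.991), Tnfsf10 (0.988), Socs1 (0.987) and Zfp281 (0.986), with Spearman rho between 0.824 and 0.918. Sting1 is the adaptor of cytosolic DNA sensing and Tnfsf10 the death ligand TRAIL. Their sizes differed, since Gm4841 rose by 4.44 ± 0.20 in naive cells at 3 h and Sting1 by 1.42 ± 0.12. No p-value is given for these rises, since the genes were chosen by their likeness to Batf2 on the same arrays. Within single array sets r stayed between 0.982 and 0.997 for these 5 genes. Batf2 had 107 genes with r over 0.95, Batf3 had 7 and Batf had 0.

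For Batf3 the 5 genes were Ilrun (r = 0.968), Parp3 (0.960), Atxn7l1 (0.959), Tbkbp1 (0.959) and the chemokine gene Cxcl10 (0.955). For Batf they were Mefv (0.924), which encodes pyrin, the microRNA gene Mir155 (0.911), the integrin gene Itga5 (0.910), Trip10 (0.909) and Tdgf1 (0.908). For Batf the relation was looser in set 2, where r was 0.788 to 0.864, than in set 1, where it was 0.935 to 0.976. In set 1 replicate 1 of naive cells at 6 h stood 0.878 above the set mean of Batf. The other arrays of that set stood between -0.382 and 0.129, and pretreated cells at 0 h and 6 h overlapped. How far r in set 1 rests on that 1 array was not tested. Within the family r was 0.927 between Batf2 and Batf3, 0.778 between Batf and Batf3 and 0.678 between Batf and Batf2. Batf2 correlated with Irf1 at 0.974, Irf8 at 0.963 and Irf4 at -0.803, and Batf with Junb at 0.864.

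**Figure D4:**
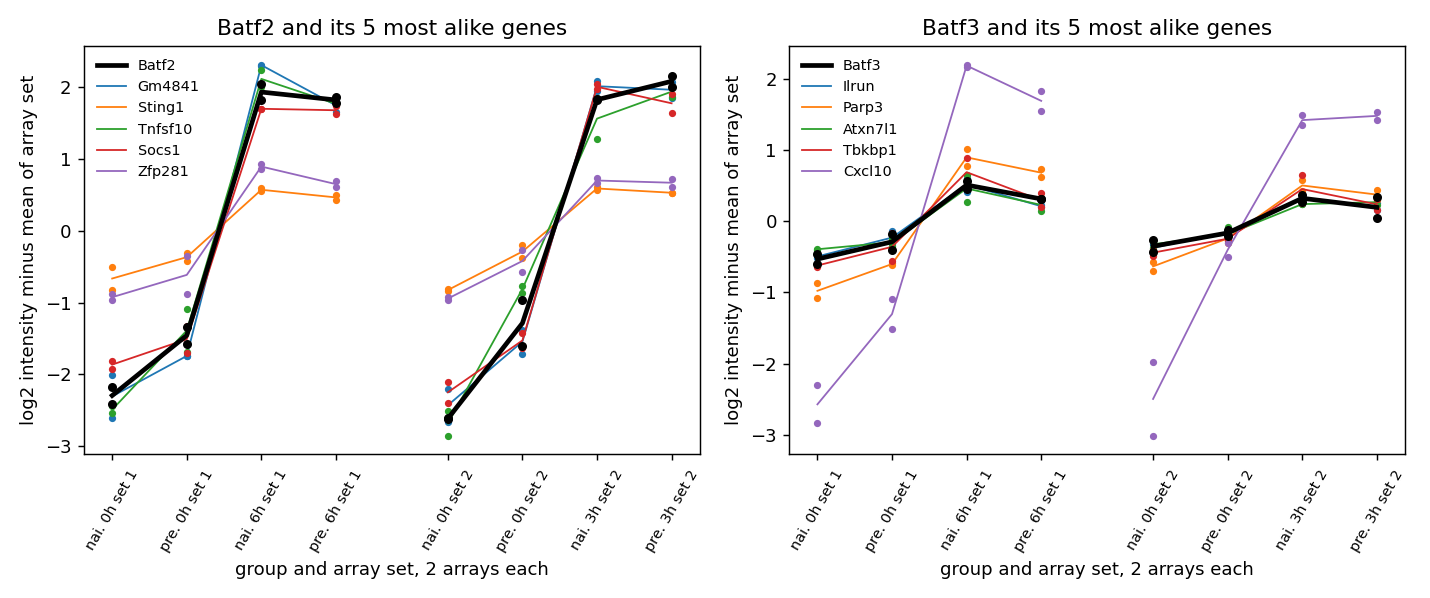
Log2 intensity minus the mean of the array set (vertical axis) for Batf2 and Batf3 and the 5 genes most like each, by group and array set. Points are arrays and lines join group means within a set. Batf2 and its 5 genes step up between 0 h and stimulated arrays by different sizes.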

How the data were processed

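The authors deposited log2 intensities of biotin-labelled RNA, per the labels. The log2 scale was read from the values, and how background was corrected and arrays were normalized and summarised is not given in the sources used here. Precision is limited by 2 arrays per group and set. Symbols were those of the platform annotation: 21789 of 35557 features had 1 symbol, 1621 several and 12147 none, and of 999 genes with several features the brightest was used, giving 19938 genes.

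A limma fit (version 3.58.1, R 4.3.3) had 1 mean for each of 8 combinations of group and array set. Residual degrees of freedom were 8 and prior ones 4.26. Contrasts were taken within a set, and averaged over sets at 0 h. Benjamini-Hochberg adjustment ran over all 19938 genes, with a threshold of 0.05. The fit was tested on simulated data. No detection calls were used, and 6.5 was taken as the limit of dim features. Promoters were searched in Python (3.11.15) with pandas (2.3.3), and numpy (2.4.6) and matplotlib (3.10.9) served for the figures.

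The members and the gene lists were chosen with earlier results of these data known. Named genes are the 3 members, up to 3 called genes of largest change per list and comparison, lists of up to 6 genes, Irf1, Irf4, Irf8, Jun, Junb, Jund and Fos, and the 5 genes most like each member. Cd79b, Fcgr1, Cd14, Flt3 and Itgae were named after their values were seen. Some listed genes are not reported here. Alternatives were a filter on dim features, the mean of a gene's features, quantile normalization within a set, eBayes with trend and robust, each array set alone, the earlier and later numbers of a set as a block, and each array left out. A lone array was then assumed to vary like the others. Deviations of arrays that shared the earlier or the later numbers of a set correlated at r between 0.082 and 0.662 in 12 pairs of groups, and 11 exceeded 0.1. Such arrays thus tended to deviate together. The earlier and the later numbers of a set each hold 1 array of each of its groups, and all 12 correlations were positive. The labels do not say what such arrays share and 1 pair was under 0.1, so the block was kept as an alternative. Calls and standard errors therefore come from a fit that ignores this possible pairing, unless the block is named.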

Additional observations from a re-analysis of the deposited data

Results flagged for a closer look

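The difference between the responses of pretreated and naive cells was itself tested, and among the genes named above it passed for Irf1 at 3 h. The response of Irf1 was 2.93 ± 0.15 in naive and 1.28 ± 0.15 in pretreated cells, a difference of -1.65 ± 0.21 (log2 ± SE, limma adjusted p = 0.00822). In set 2 Irf1 had a mean of 10.11 in naive and 11.61 in pretreated cells at 0 h, and of 13.04 and 12.89 at 3 h. The starting levels thus lay far apart and the levels reached lay close together. Irf1 was 1 of 16 genes called for the difference of the responses, all of them lower. With array set 2 alone the adjusted p was 0.0652. With earlier and later numbers as a block Irf1 kept its call, and the difference also passed for Ccl5 at 3 h and 6 h. At 6 h it passed for Maff, Nfil3 and Socs3 as well.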

How the results depend on the processing

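Under the alternatives that leave out no array, 163 of 165 family values moved by less than the spread between replicates. This count is no measure of stability, since most of these values could not move. Each member has 1 feature, and the dim filter, the eBayes setting and the block leave its differences unchanged. Differences that involve 3 h or 6 h cells are the same with their set alone. The values that moved further were the 0 h difference of Batf2 between pretreated and naive cells, 0.84 with set 1 alone and 1.33 with set 2 alone. Quantile normalization moved family values by at most 0.07. With the earlier and later numbers as a block the count of called genes was 1925 in naive cells at 3 h, 1272 and 1895 in pretreated cells at 3 h and 6 h, 684 at 0 h, 76 between kinds at 3 h and 845 at 6 h, and for the response differences 31 and 302. Against 192 at 0 h, set 1 alone gave 52 and set 2 alone 74. Set 1 alone gave 29 between kinds at 6 h and 14 for the 6 h response difference, and set 2 alone 8 for that at 3 h. Leaving out 1 array gave 543 to 716 calls in naive cells at 3 h (1088 with all arrays) and 2217 to 2981 at 6 h (3653). In pretreated cells it gave 219 to 429 at 3 h (569) and 486 to 861 at 6 h (1126). Between kinds it gave 142 to 203 at 0 h (192), 1 to 2 at 3 h (3) and 13 to 406 at 6 h (140), and for the response differences 8 to 14 (16) and 4 to 157 (29). Of the family, Batf ran from 0.40 to 1.15 in naive cells at 6 h, from -0.92 to -0.17 between kinds at 6 h and from -1 to -0.25 for the 6 h response difference. Batf2 ran from 3.04 to 3.69 in pretreated cells at 3 h and from -1.40 to -0.75 for the 3 h response difference. Batf3 ran from 0.21 to 0.50 in pretreated cells at 3 h, from -0.27 to 0.02 between kinds at 3 h and from -0.46 to -0.17 for the 3 h response difference. Of 81 single gene calls, 65 kept the call in every alternative that leaves out no array and 51 with any 1 array left out. The titles number the arrays of a set and give no replicate number, so pairing was tried through the block of earlier and later numbers alone. That block left the family calls as they were, from which nothing is read. Of the listed partner and pathway genes it gave 110 calls against 81, with 29 gained and 0 lost.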
